A study of Bos taurus with 8 samples.

Results

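The 2 embryo-derived stem-like cell (eSLC) lines from bovine nuclear transfer (NT) blastocysts were compared with bovine somatic cells (SCs), on 4 of the 8 arrays of the series. The NT lines were N2 at passage 36 and N7 at passage 30, and the SCs were taken at passages 5 and 10 (SC P5 and SC P10). The 2 lines from in vitro produced (IVP) embryos, I2 at passage 35 and I9 at passage 30, gave the embryo reference level, and the 2 lines from parthenogenetic (PA) embryos, P1 (passage 31) and P4 (passage 36), served as lines made without a somatic nucleus. All 4 conditions came from HanWoo cattle, each line or passage was measured on 1 array, and the labels name no transgene. All 6 eSLC lines grew in 3i medium, named for its 3 kinase inhibitors (PD184352, SU5402 and CHIR99021) on mitotically inactivated murine STO cells, a fibroblast line, whereas the SCs grew in DMEM with fetal bovine serum. The NT embryos received ear skin cells as nuclear donors. Whether the arrayed SCs came from the donor animal is not given in the sources used here, and whether the passages are separate cultures is not given either, so p-values measure the spread between these arrays.

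In nuclear transfer the nucleus of a differentiated cell is placed in an egg without its own chromosomes, and the egg cytoplasm silences the genes of the donor cell type and opens those of the early embryo. The first cells set apart in the blastocyst are the trophectoderm, an epithelium that gives the placenta, the hypoblast, which gives the yolk sac endoderm, and the epiblast, which gives the body. A donor gene that stays on, or an embryonic gene that stays closed, is the usual sign of incomplete reprogramming, and fibroblast donors are marked by collagens, cell-matrix receptors, actin-binding proteins and mesenchymal transcription factors.

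The arrays were single-colour Agilent arrays, and levels are background-subtracted intensities scaled so that the 75th percentile of every array equals 1000, with a common floor of 13.3. Between 71.2% and 76.7% of spots were well above background on an array. N7 shared slide 1 with SC P5, I2 and I9, and N2 shared slide 2 with SC P10, P1 and P4. Several arrays stood apart or resembled an array of another label. Across the 10957 genes tested, N2 and I9 correlated at 0.994 (Pearson, genes are not independent replicates) and 257 genes were at least 2-fold apart, fewer than the 335 between SC P5 and SC P10. By comparison 2231 genes were 2-fold apart between N2 and N7, and 1585 between I2 and I9. Some endoderm genes, HNF4A among them, were high in N7 alone, and others such as TTR were not. Y-linked transcripts also split the lines. DDX3Y reached 758 in N7 and 369 in P1, USP9Y reached 186 and 157, and EIF1AY reached 514 in N7 and was not above the floor in P1. These 3 genes lay at the floor in N2, P4, I2, I9 and both SC arrays, although DDX3Y was marked well above background at 12.6 in I9. SRY was not well above background on any array. N7 thus differed in these 3 genes from N2 and from both SC arrays, and whether N7 and the arrayed SCs share an animal of origin was not tested. Some other probes named for Y-linked genes, ZFY and all 5 ZNF280BY probes among them, were well above background on all 8 arrays. ZFY was 150 in N7, 184 in SC P5 and 169 in SC P10. All 5 ZNF280BY probes were highest in N7. The brightest of them was 1949 in N7, 231 in N2, 639 in I2, 58.1 in SC P5 and 79.2 in SC P10. P1 held DDX3Y and USP9Y signal against its label, since a parthenogenetic embryo has no sperm chromosome.

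Against SCs, the NT lines had lower levels of most fibroblast genes and higher levels of epithelial junction and most trophoblast genes. In the limma fit of all 8 arrays 1733 genes were higher in NT-eSLCs, 15.8% of the 10957 tested, and 1527 were lower, 13.9%, at a Benjamini-Hochberg adjusted p under 0.05 and at least 2-fold. Within slide 1, N7 was at least 2-fold above SC P5 at 2580 genes and below it at 2018, and within slide 2, N2 was above SC P10 at 2367 genes and below it at 1940. With slide as a block the fit called 1640 higher and 1452 lower. On the processed signal 187 were higher and 66 lower, a split of 73.9% higher among the calls against 53.2%. Without SC P5 the counts were 883 and 843, and without SC P10 1049 and 904. The median gene stood 0.17 above SC on the log2 scale in the NT lines. In bulk RNA, fewer cells of a type and less RNA per cell cannot be told apart.

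**Figure D1:**
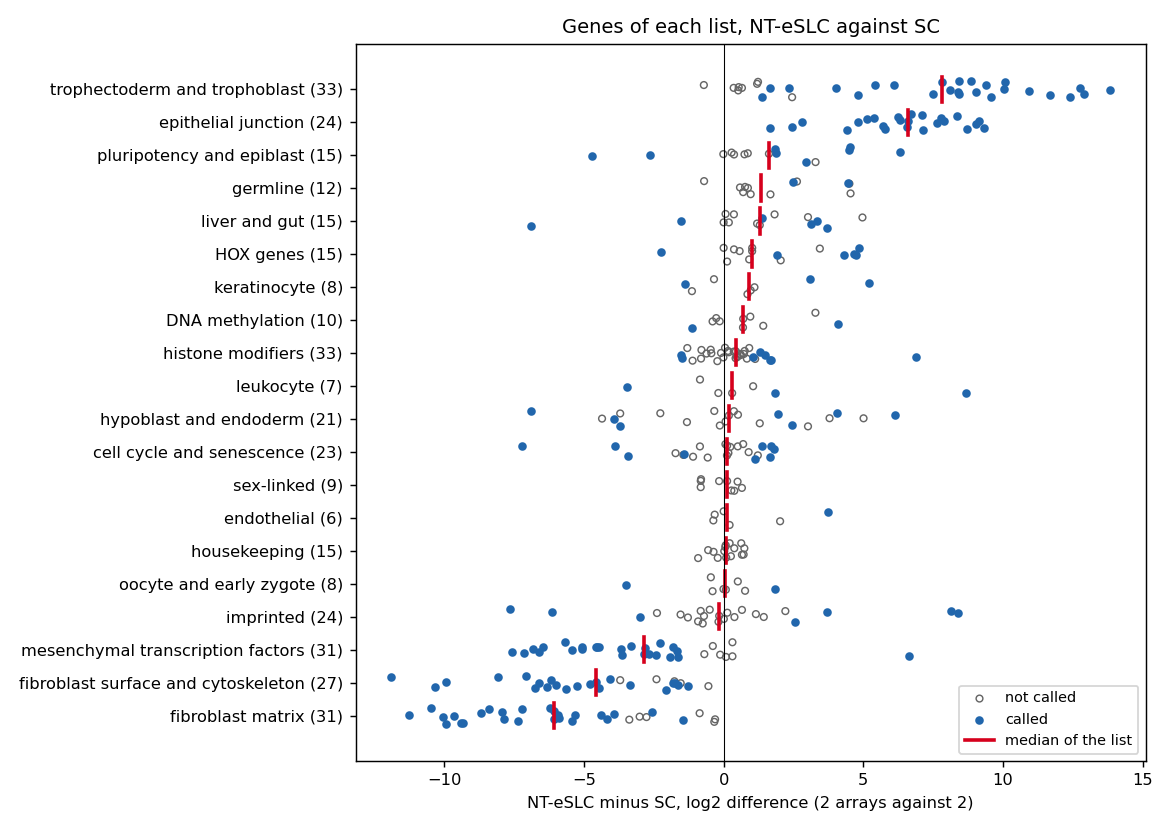
Log2 difference between NT-eSLCs (2 arrays) and SCs (2 arrays) for each tested gene of 20 gene lists, with the number of tested genes in brackets. Filled points passed the limma test, open points did not, and red bars mark the median of a list. The fibroblast matrix list has its median at -6.07 and the trophoblast list at 7.82.

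The fibroblast matrix list holds collagens, elastic fibre proteins and enzymes that crosslink them. Of its 31 tested genes 25 fell and 0 rose, where 15.8% of all genes rose and 13.9% fell, with a median log2 difference of -6.07 against 0.17 over all genes. COL6A1, a chain of collagen VI, had a level of 166526 in SC P5 and 203573 in SC P10, against 113 in N2 and 50.8 in N7. Both NT arrays were also below the 2 IVP arrays, at 486 in I2 and 169.8 in I9. The difference from SCs was -11.25 ± 1.2 (log2, SE; limma adjusted p = 0.0012). ASPN, the small leucine-rich proteoglycan asporin, was 22932 in SC P5 and 15321 in SC P10 and not well above background on either NT array, which makes SCs at least 1410.2-fold higher. FBLN5, an elastic fibre organiser, stood at 15620.4 in SC P5 and 15423 in SC P10 and at 13.3 in N2 and 15.8 in N7. LOX, which crosslinks collagen and elastin, stood at 36329 in SC P5 and 35719.9 in SC P10 and at 40.3 in N2 and 33.4 in N7. In all 4 genes the SC and NT arrays were far from overlapping, and the genes were named for the size of this difference. The 6 tested genes that did not pass included FN1, fibronectin, at 39889.7 in SC P5 and 46779 in SC P10 and at 18235 in N2 and 64346 in N7, where N7 exceeded both SC arrays. The summed level of the list was 1229660 in SC P5 and 1535930 in SC P10, 68084 in N2, 107805 in N7, and 31880 to 58761 on the IVP arrays.

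Surface and cytoskeletal genes of fibroblasts behaved likewise. Of 27 tested genes 22 were lower in NT-eSLCs and 0 higher, compared with 13.9% and 15.8% of all genes, and the median log2 difference was -4.57. CAV1, the coat protein of caveolae, was 77633 in SC P5 and 82062 in SC P10, and 13.3 in N2 and 33 in N7 (difference -11.90 ± 0.45 log2, SE, limma adjusted p = 3.06e-05). S100A4, a calcium-binding protein of motile mesenchymal cells, was 149206 in SC P5 and 204802 in SC P10, and 209 in N2 and 87.1 in N7. TPM2, a tropomyosin of actin filaments, fell from 45896 in SC P5 and 53266 in SC P10 to 34.7 in N2 and 72.4 in N7. VIM, the mesenchymal intermediate filament protein vimentin, fell from 174495 in SC P5 and 214613 in SC P10 to 4414 in N2 and 1574 in N7, with N7 inside the range of the IVP and PA lines, 781 to 3768, and N2 above it. Without SC P5, and without SC P10, 12 genes of this list were lower, and leaving out single arrays gave 20 to 26 lower on the matrix list.

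Mesenchymal transcription factors set and hold the fibroblast identity. Of 31 tested, 24 fell and 1 rose, where 15.8% of all genes rose and 13.9% fell, with a median of -2.87. PRRX1, a limb and dermal mesenchyme homeobox factor, was 53725 in SC P5 and 52421 in SC P10, and 457 in N2 and 168 in N7. MEOX1 was 3216 in SC P5 and 1087 in SC P10, and not well above background in the NT lines, so that SCs were at least 141-fold higher. TBX18, a T-box factor, was 4085 in SC P5 and 6010.4 in SC P10, and 30.2 in N2 and 62.9 in N7. The direction of PRRX1 turned on the processed signal and on the deposited series-wide normalized values, at log2 differences of 0.92 and 0.095. TWIST1 and SNAI2, which drive mesenchymal state, had log2 differences of -5.09 ± 0.40 and -6.61 ± 0.70 (SE, limma adjusted p = 3.83e-04 and 0.0012). The 1 gene of the list that rose was DLX5, a distal-less homeobox factor, from 27.3 in SC P5 and 34.2 in SC P10 to 4743 in N2 and 1962 in N7. All 15 members that belonged to the somatic set defined below were at embryo level in both NT lines, as were 76.5% of that whole set.

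Among genes measured well above background on all 4 arrays, the 8 largest falls were COL6A1, S100A4, CCDC80, TPM2, LOX, LTBP2, SMOC1 and HAPLN3. Their log2 differences lay between -11.25 and -9.70. CCDC80, a secreted matrix protein, went from 27518 in SC P5 and 31066 in SC P10 to 33.4 in N2 and 17.2 in N7. LTBP2, which binds elastic microfibrils, went from 31281 in SC P5 and 19341 in SC P10 to 42.2 in N2 and 15.1 in N7. SMOC1, a calcium-binding matrix protein, went from 17291 in SC P5 and 23946 in SC P10 to 20.9 in N2 and 20.8 in N7, and HAPLN3, which links hyaluronan to proteoglycans, from 33790.4 in SC P5 and 30982 in SC P10 to 45.2 in N2 and 33.6 in N7. In each of the 8 both SC arrays were above both NT arrays, which was part of the rule that chose them. The SMOC1 difference was 0.020 on the processed signal.

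The genes shut off most completely were those high in SCs and not well above background on either NT array. Of the 511 somatic genes 69 were not well above background in both N2 and N7, and 47 on none of the 6 eSLC arrays. The 8 with the highest SC level were CCN5, ASPN, EPDR1, CAVIN1, SFRP4, EFEMP1, PCDH18 and TMEM150C. CCN5, a matricellular protein of the CCN family, was 32869 in SC P5 and 30541 in SC P10 and at the floor on all 6 eSLC arrays, a fall of at least 2384-fold. CAVIN1, which builds caveolae with CAV1, was 11779 in SC P5 and 9334 in SC P10 and at least 789-fold lower. SFRP4, a secreted WNT antagonist, was 9654 in SC P5 and 7320.2 in SC P10 and at least 632-fold lower. EPDR1 and EFEMP1, 2 secreted proteins, were at least 987-fold and 453-fold lower. For PCDH18, a protocadherin, and TMEM150C the bounds were 446-fold and 291-fold. These bounds are for the brightest probe of a gene, and other probes fell less. Log2 differences ran from -9.62 to -0.53 over 10 CAVIN1 probes and from -8.82 to -2.56 over 3 EFEMP1 probes. With 2 probes each, they ran from -8.19 to -2.00 for TMEM150C, -9.95 to -4.11 for EPDR1, -9.30 to -6.74 for SFRP4 and -8.80 to -5.95 for PCDH18. CCN5 and ASPN had 1 probe. N2 and N7 both lay at the floor in all 8, which is how they were chosen.

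In the other direction, all 24 epithelial junction genes tested rose, as did 15.8% of all genes, with a median log2 difference of 6.59. EPCAM, an epithelial adhesion molecule, rose from 147 in SC P5 and 54.2 in SC P10 to 36777 in N2 and 38517 in N7. CLDN6, a tight junction claudin of early embryonic epithelia, was at the floor in SCs and 8295 in N2 and 8549.9 in N7, at least 634-fold higher. PRSS8 and SPINT1, the membrane protease prostasin and an inhibitor of membrane proteases, rose by 9.16 ± 0.34 and 9.03 ± 0.38 (log2, SE, limma adjusted p = 2.86e-05 and 4.33e-05). The NT and SC arrays did not overlap in any of these 4 genes, which were named for the size of this difference. All 21 members that belonged to the embryonic set defined below were at embryo level in both lines, as were 70.9% of that whole set.

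Trophoblast genes had the highest median of the 20 lists, although epithelial junction genes exceeded it with genes well above background on all 8 arrays (6.51 and 5.11) and on the processed signal (3.76 and 3.43). Of 33 tested, 25 rose and 0 fell, where 15.8% of all genes rose and 13.9% fell, and the median log2 difference was 7.82. TKDP1, a trophoblast Kunitz domain protein, was at the floor in SCs and 327596 in N2 and 113650 in N7, at least 14517-fold higher. PAG2 and PAG11, 2 of the pregnancy-associated glycoproteins that ruminant trophoblast secretes, were at least 7699-fold and 6989.6-fold higher. PAG probes can share transcripts among near-identical copies. PLAC8A, a gene of elongating bovine conceptuses, rose from 21.6 in SC P5 and 18.9 in SC P10 to 192067 in N2 and 61759 in N7. GATA3, a trophectoderm transcription factor, rose from 39.6 in SC P5 and 25.1 in SC P10 to 34367 in N2 and 17128 in N7, and KRT18, a keratin of simple epithelia, from 286 in SC P5 and 155 in SC P10 to 389891 in N2 and 130782 in N7. N7 was the lower of the NT lines in each of these 6 genes. The summed level of the list was 2997080 in N2, 929102 in N7, 1624590 in I2 and 1908250 in I9. In SCs it was 106662 at P5 and 100894 at P10. The housekeeping list was also lower in N7, with a summed level of 921814 against 2010760 in N2. Its sum was 1283670 in I2, 1187110 in I9, 1079540 in SC P5 and 1429880 in SC P10. N2 and N7 lay on different slides, and the part of slide in the lower N7 levels was not tested.

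The 8 largest rises among genes measured on all 4 arrays were PLAC8A, SSLP1, KRT18, GATA3, PAG8, PRSS8, AP1M2 and PLBD1. SSLP1 went from 18.8 in SC P5 and 18.8 in SC P10 to 168837 in N2 and 22877 in N7, but its 3 probes disagreed, with log2 differences from -0.11 to 11.69. AP1M2, an adaptor subunit for sorting to the basolateral membrane of epithelia, went from 93 in SC P5 and 40.9 in SC P10 to 46308 in N2 and 24866 in N7. PLBD1, a lysosomal phospholipase-like protein, went from 21.2 in SC P5 and 29.8 in SC P10 to 40530.1 in N2 and 4255 in N7. It was 1 of the embryonic genes at least 4-fold below the lower IVP array in N7.

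Genes of pluripotency and the epiblast gave a mixed picture. Of 15 tested, 6 rose, 2 fell and 7 did not pass, where 15.8% of all genes rose and 13.9% fell, with a median of 1.62. SALL4, a zinc finger factor of the pluripotency network, rose from 15.6 in SC P5 and 15.4 in SC P10 to 1079.8 in N2 and 1376 in N7. LIN28A, an RNA-binding protein of early embryonic cells, was at the floor in SCs and 316 in N2 and 286 in N7, at least 22.6-fold higher. DPPA2 and DPPA4, partners in chromatin of early embryos, stood at 149.6 in N2 and 633 in N7, and at 108 in N2 and 162 in N7, with DPPA2 at the floor in SCs and DPPA4 at 22 in SC P10 and at the floor in SC P5. KLF5 rose from 595 in SC P5 and 757 in SC P10 to 2605 in N2 and 2385 in N7, and TEX14 from 18.4 in SC P5 and 14.1 in SC P10 to 89.3 in N2 and 37.5 in N7. The 2 genes that fell were SOX2, a core pluripotency and neural factor, from 459 in SC P5 and 551 in SC P10 to 64.9 in N2 and 99.5 in N7, and ETV5, a target of FGF signalling, from 384 in SC P5 and 536 in SC P10 to 13.3 in N2 and 22.3 in N7. Their log2 differences were -2.65 ± 0.40 and -4.72 ± 0.30 (SE, limma adjusted p = 0.0046 and 1.79e-04). The IVP lines had SOX2 at 60.4 in I2 and 50.6 in I9. Without SC P5, and without SC P10, 2 genes of the list rose. On the processed signal, an alternative column described in the processing notes, LIN28A, DPPA2 and KLF5 were lower and ETV5 higher in the NT lines.

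POU5F1, which codes for OCT4 and is the defining factor of the pluripotent epiblast, was detected in both NT lines. It was 899 in N7 and 45.2 in N2, compared with 16.3 in SC P5 and 26 in SC P10, 50.6 in I2 and 30.8 in I9, and 101 in P1 and 60.7 in P4. The N2 level lay between the IVP levels, and the N7 level was 17.8-fold that of I2. Neither the comparison of NT-eSLCs with SCs (adjusted p = 0.1) nor that of N7 with the IVP lines (adjusted p = 0.058) passed in limma. NANOG, the other core factor, was 18.1 in N2 and 32.4 in N7, and at the floor in SCs. TFCP2L1, a factor of naive pluripotency, was 13.3 in N2 and 126 in N7, LEFTY2, an inhibitor of NODAL, was 29.4 in N2 and 143 in N7, FBXO15 was 629 in N2 and 1762 in N7, and FGF4 was 19.7 in N2 and 13.3 in N7. DPPA3, PRDM14, NODAL and OTX2 were not tested because no condition had them above background on both arrays, and NR0B1 was at the floor in both NT lines. N7 had 39.4 for NODAL, 21.7 for PRDM14 and 21.8 for OTX2, against the floor in N2.

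To follow reprogramming gene by gene, a somatic set and an embryonic set were formed from the SC and IVP arrays alone. A somatic gene was well above background on both SC arrays, with its lower SC array at least 8-fold above its higher IVP array, and 511 genes met this. An embryonic gene was the reverse, and 577 genes met it. The nearest genes inside and outside the 8-fold limit were PLPP7 at 8.01 and RBL2 at 7.99 for the somatic set, and ABCG2 at 8.02 and SHROOM3 at 7.99 for the embryonic set. A somatic gene was called at embryo level in a line if it was at most 2-fold above the higher IVP array, and still on if well above background and at least 4-fold above it. An embryonic gene was called at embryo level if at most 2-fold below the lower IVP array, and not switched on if at least 4-fold below it. The counts are descriptions without a test, and because the IVP arrays chose the sets, P1 and P4, which did not, are given beside the NT lines.

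Most somatic genes were at embryo level in both NT lines, which does not mean undetected, since 154 of the 511 in N2 and 91 in N7 were not well above background. In N2, 494 of the 511 (96.7%) were at embryo level, 16 lay between and 1 was still on. I9, from which N2 differed at fewer genes than the SC arrays did from each other, is 1 of the 2 reference arrays, and against I2 alone 423 of 645 were at embryo level in N2. Whether N2 and I9 are separate lines was not tested. In N7, 403 (78.9%) were at embryo level, 51 lay between and 57 (11.2%) were still on. P1 had 486 at embryo level and 8 still on, and P4 had 503 and 1. Both NT lines were at embryo level for 391 somatic genes, 76.5% of the set, and 0 genes were still on in both. Over all 10957 genes tested, 1.31% were well above background and at least 4-fold over the higher IVP array in N7, 0.0183% in N2, 0.365% in P1 and 0.0639% in P4. The median somatic gene stood 4.83 below the lower SC array in N2 and 4.65 below it in N7 on the log2 scale.

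**Figure D2:**
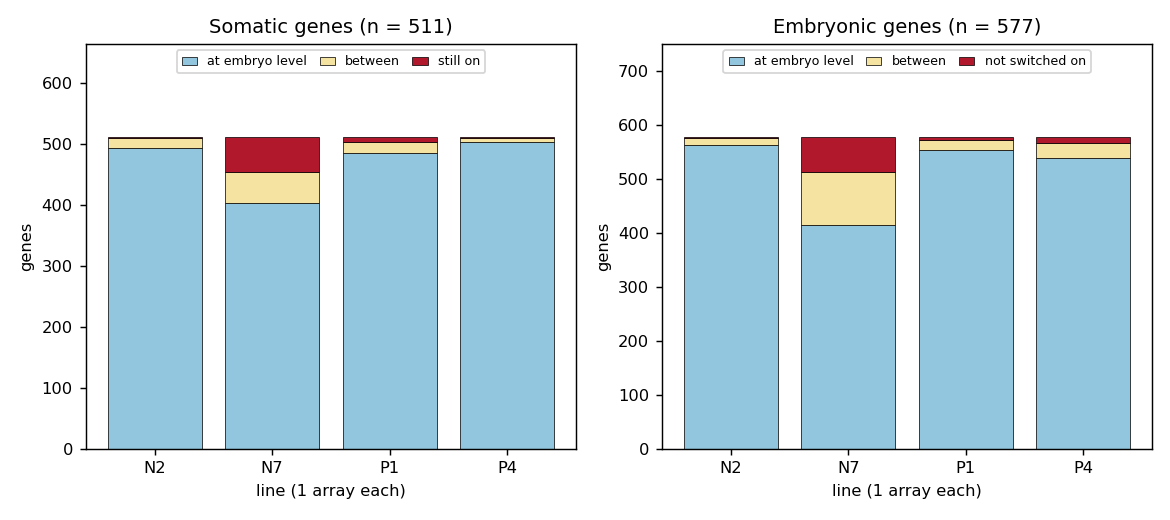
Number of somatic genes (left, of 511) and embryonic genes (right, of 577) at embryo level, between, or still on or not switched on, in the NT lines N2 and N7 and the PA lines P1 and P4, 1 array each. N7 has 57 somatic genes still on and 65 embryonic genes not switched on, against 1 and 1 in N2.

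The single somatic gene still on in N2 was TAGLN, the actin-binding protein transgelin. It was 782 in N2, 218 in N7, 27.9 in I2 and 151 in I9, and 32843 in SC P5 and 50630.2 in SC P10. N2 was thus 5.19-fold above I9 and far below both SC arrays. The NT lines as a pair differed from SCs by -6.63 ± 0.92 (log2, SE), and N2 alone by -5.70. CNN1, calponin, another actin-binding protein, was 1036 in N2, 216 in N7, 84.4 in I2 and 268 in I9, and lay between the limits in N2.

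The 57 somatic genes still on in N7 ranged from above SC level to well below it. In 15 of them N7 was less than 2-fold below the lower SC array or above it, and in 4 it exceeded both SC arrays. The nearest genes to the 4-fold limit were RGS16 at 4.14 inside and CAMK2D at 3.97 outside. In the limma fit that takes N2 and N7 as single arrays, 48 genes were higher in N7 than in the IVP lines, 0.438% of those tested, and 22 of the 57 were among them, and 32 genes were higher in N7 than in N2, 0.292% of those tested, with 13 of the 57 among them. N7 was lower than SCs at 32 of the 57, and at 13.4% of all genes tested. The 57 were chosen for high SC and N7 levels and low IVP levels, so nothing is read from these counts. The lone array is assumed to vary like the pairs. The total of 60 genes called between N7 and the IVP lines in either direction became 12 without SC P10, 17 without SC P5, 20 without I2, 24 without P1, 23 without P4 and 46 without I9.

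**Figure D3:**
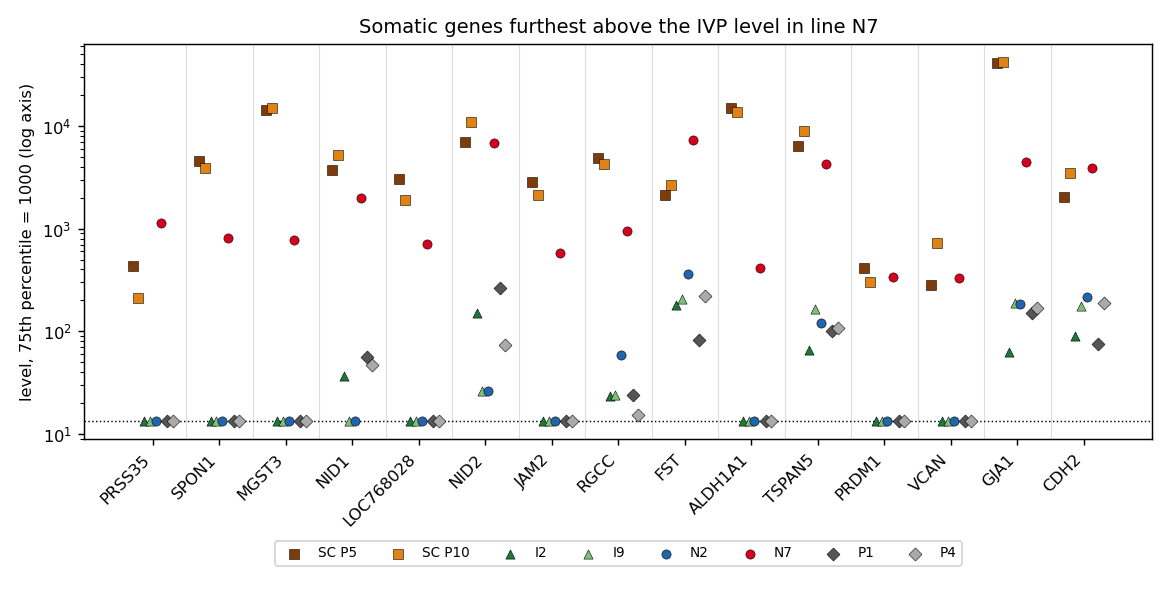
Level of the 15 somatic genes furthest above the higher IVP array in N7, on each of the 8 arrays (log axis, 75th percentile of an array = 1000, dotted line = floor of 13.3). N7 lies well above N2 and the other eSLC lines in every gene, and above both SC arrays in PRSS35, FST and CDH2.

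The somatic genes on in N7 and at embryo level in N2 with the largest excess were PRSS35, SPON1, MGST3, NID1, LOC768028 and NID2. PRSS35, a serine protease-like secreted protein, was 1136 in N7 and at the floor in N2 and the other 4 eSLC lines, with 433 in SC P5 and 211 in SC P10, so that N7 lay above both SC arrays. SPON1, the secreted matrix protein F-spondin, was 804 in N7, at the floor in the other eSLC lines, and 4548 in SC P5 and 3891 in SC P10. MGST3, a microsomal glutathione transferase, was 775 in N7, at the floor in the other eSLC lines, and 14143 in SC P5 and 15056 in SC P10. N7 was at least 85.5-fold, 60.5-fold and 58.3-fold above the IVP lines in these 3 genes, the excess they were chosen for. LOC768028, a gene without a name in the table used, was 703 in N7 and at the floor in the other eSLC lines, with 3036 in SC P5 and 1913 in SC P10.

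The nidogens NID1 and NID2 link laminin to collagen IV in basement membranes. NID1 was 1991 in N7, at the floor in N2 and I9, 36.8 in I2, and 3716 in SC P5 and 5171 in SC P10. NID2 was 6846 in N7, 26.2 in N2, 149 in I2 and 26.4 in I9, and 6946 in SC P5 and 10824 in SC P10, which brings N7 to 98.6% of the lower SC array.

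Members of the fibroblast lists among the 57 were FBLN1, SPARC, VCAN, MFAP5, PDGFRA and CDH2, and the other 37 list members in the somatic set were not still on in N7. Of the whole somatic set 11.2% was still on in N7. FBLN1, fibulin-1, was 119 in N7 compared with 31064 in SC P5 and 21230.5 in SC P10, at the floor in N2 and both IVP lines. SPARC, a collagen-binding glycoprotein, was 19497 in N7, 5571 in N2, 2285 in I2 and 4602 in I9, and 140556 in SC P5 and 176956 in SC P10. VCAN, the proteoglycan versican, was 334 in N7 and at the floor in N2, with 281 in SC P5 and 727 in SC P10. PDGFRA, a receptor for platelet-derived growth factor, was 1424 in N7, 119 in N2, and 5585 in SC P5 and 5158 in SC P10. CDH2, N-cadherin, was 3899 in N7, 214 in N2, and 2024 in SC P5 and 3468 in SC P10, so that N7 was above both SC arrays. MFAP5, a microfibril protein, was 306 in N7 and 7061 in SC P5 and 6688 in SC P10. NID2, SPARC and PDGFRA are also members of the hypoblast list.

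Other somatic genes on in N7 had roles outside the matrix. PRDM1, the transcriptional repressor BLIMP1, was 337 in N7, 416 in SC P5 and 302 in SC P10, and at the floor in the other eSLC lines. FST, the activin antagonist follistatin, was 7284 in N7, 362 in N2, and 2129 in SC P5 and 2685 in SC P10. ALDH1A1, which makes retinoic acid, was 409 in N7 compared with 14909 in SC P5 and 13516 in SC P10, and at the floor elsewhere. GJA1, the gap junction protein connexin 43, was 4431 in N7, 185 in N2, and 41235 in SC P5 and 41875 in SC P10. ID1, an inhibitor of basic helix-loop-helix factors, was 1329 in N7, 119.9 in N2, and 1207 in SC P5 and 5756 in SC P10. These 5 were named after their values were seen. N2 and N7 lay on different slides and were at different passages. I9, on the slide of N7 and at the same passage, was at least 2-fold apart from N2 at 257 genes and from N7 at 1836, and it lay at the floor for PRSS35, SPON1 and MGST3. The part of slide and passage in the N7 difference was not tested.

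A probe annotated BOLA, the bovine major histocompatibility complex, was 7296 in N7, 711 in N2, 1065 in I2 and 739 in I9, 23591 in P1 and 746 in P4, and 46864 in SC P5 and 35487 in SC P10. It and DDC, a decarboxylase, were the 2 somatic genes still on in both N7 and P1. DDC was 622 in N7, 763 in P1, 23.8 in N2 and at the floor in P4.

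Fewer embryonic genes were at embryo level in N7 than in N2. Of the 577, 563 (97.6%) were at embryo level in N2 and 1 was not switched on. In N7, 415 (71.9%) were at embryo level, 97 lay between and 65 (11.3%) were not switched on. P1 had 553 at embryo level and 5 not switched on, and P4 had 538 and 10. In both NT lines together 409 genes, 70.9% of the set, were at embryo level. Over all genes tested, with both IVP arrays above background, 1.15% were at least 4-fold below the lower IVP array in N7, 0.0639% in N2, 0.119% in P1 and 0.192% in P4. Of the 65, N7 was within 2-fold of the higher SC array at 18. In limma 12 genes were lower in N7 than in the IVP lines, 0.11% of those tested, and 6 of the 65 were among them. N7 was above SCs at 30 of the 65, and at 15.4% of all genes tested. The 65 were chosen on the N7, IVP and SC levels, so nothing is read from these counts. The genes next to the limit were GSDMC at 4.12-fold below the lower IVP array and TAFA5 at 3.99-fold.

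EPB42, a red cell membrane protein, was the 1 embryonic gene at least 4-fold below the lower IVP array, the rule for not switched on, in both NT lines. It was 2649 in I2 and 1222 in I9, 143 in N2 and 288 in N7, and at the floor in SCs. P1 and P4 were as low, at 185 and 125, so the IVP lines stood above all 4 other eSLC lines. By the same arrays the NT lines stood at least 15.2-fold above SCs (limma adjusted p = 0.0023, where low SC levels were part of the choice of the set). The difference from SCs turned to -4.11 (log2) on the processed signal.

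The embryonic genes not switched on in N7 and at embryo level in N2 with the largest deficit were BBOX1, UNC93A, NRN1, LOC100196897, LYZ3 and LOC613358. BBOX1, the last enzyme of carnitine synthesis, was at the floor in N7 and in SCs, 754 in N2, and 825 in I2 and 860.1 in I9. UNC93A, a membrane transporter-like protein, was 28.3 in N7, 1184 in N2, and 2367 in I2 and 1706 in I9. NRN1, the neurite growth protein neuritin, was 59.4 in N7 and 2385 in N2. LYZ3, a lysozyme of a family with similar copies, was at the floor in N7 and 3265 in N2, but the IVP lines themselves were far apart, at 407 in I2 and 9749 in I9. LOC613358 and LOC100196897, genes without a name in the table used, were 1664 and 15.1 in N7 and 232478 and 1358 in N2.

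Of the fixed lists, TKDP4 and TEX14 were the members not switched on in N7. TKDP4, a trophoblast Kunitz domain protein, was 2227 in N7, 308064 in N2, 62996 in I2 and 177808 in I9, and at the floor in SCs, so that N7 was far above SCs and 28.3-fold below the lower IVP array. Of the 22 trophoblast genes in the embryonic set, 18 were at embryo level in both lines, as were 70.9% of that whole set. TEX14 was 37.5 in N7, 89.3 in N2, and 200.3 in I2 and 167 in I9. Other genes low in N7 were GABRP, a GABA receptor subunit, at 24.9 in N7 and 1337 in N2, PLA2G7, a phospholipase of platelet-activating factor, at 779 and 34217, and CGA, the glycoprotein hormone alpha chain, at 6987 and 30133. These 3 were named after their values were seen.

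The state of N2 depended on which embryo line was the reference. With I9 alone as reference N2 had 1 of 580 somatic genes still on, and with I2 alone it had 86 of 645. I9, set against I2 in the same way, had 63 still on, and 58 of the 86 were the same genes as in I9. N7 had 80 still on with I9 alone and 101 with I2 alone. Both NT lines shared 22 genes still on against I2, 16 of them also on in I9, and among them were CALD1, LOXL2, TAGLN and THBS1 of the fibroblast lists. LOXL2, a lysyl oxidase-like enzyme, was 374 in I2 and 4666 in I9, 8008 in N2 and 7938 in N7, and 69234 in SC P5 and 99249.5 in SC P10. With P1 and P4 as reference, N2 had 34 of 538 still on, N7 had 70, and both shared 8. For embryonic genes N2 had 3 of 691 not switched on against I9 alone, 128 of 767 against I2 alone and 39 of 605 against the PA lines. N7 had 165, 161 and 67. Against I2 alone 62 genes were not switched on in both NT lines, 42 of them not in I9 either. They included PHLDA2, an imprinted brake on placental growth, which was 4253 in N2 and 4274 in N7, 62247 in I2 and 3960.0 in I9, and 141617 in P1 and 17974 in P4, and at or just above the floor in SCs.

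**Figure D4:**
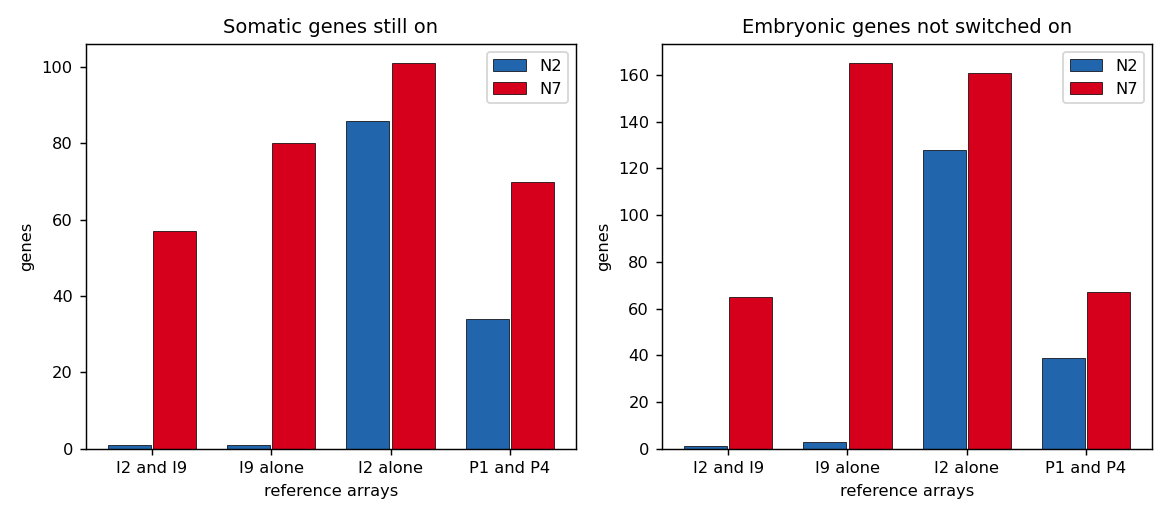
Number of somatic genes still on (left) and of embryonic genes not switched on (right) in N2 and N7 when the reference is both IVP lines, 1 of them, or both PA lines. The N2 counts run from 1 to 86 and from 1 to 128, and the N7 counts stay at 57 or above.

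N7 stood apart in lineage markers as well. It was high for some endoderm genes that neither SCs nor the other eSLC lines expressed at that level. HNF4A, a transcription factor of visceral endoderm and liver, was 9035 in N7 and 15.6 to 23.4 or at the floor on the other arrays (9.11 log2 above IVP). N7 is a single array here, and arrays near the floor do not show how an expressed gene varies between lines. No call is therefore read from the N7 comparisons of this paragraph. AHSG and TF, the liver and yolk sac plasma proteins fetuin-A and transferrin, were 5574 and 460.2 in N7 against 31.2 and 25.3 in N2. GATA4, an endoderm and heart factor, was 2922 in N7 and 23.2 in N2, and APOA1, an apolipoprotein, 112754 and 1486. FETUB, fetuin-B, and APOH were 23723 and 1279 in N7 and at the floor in N2 and SCs. They were not tested because no condition had both arrays above background.

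Over the whole hypoblast list, 21 of 22 genes were well above background in N7 and also in P1. There were 20 in N2, 20 on each IVP array, 19 in P4 and 18 on each SC array. The summed level was 366167 in N7, 115094 in N2, 104167 and 109980 in the IVP lines, and 272101 and 318344 in SCs. On the liver and gut list 17 of 20 were above background in N7 and 13 in N2, with summed levels of 127353 and 5076, while ALB stayed at 23.8 in N7 and AFP at 15.9. SOX17, a hypoblast factor, was 2949 in N2 and 2667 in N7, and 3446 in SC P5 and 2759.8 in SC P10, with 2 probes of opposite sign. The part of endoderm cells in the N7 somatic counts was not tested. Against SCs, 4 hypoblast genes rose, 3 fell and 14 did not pass, where 15.8% of all genes rose and 13.9% fell. AMN, a subunit of the endocytic receptor cubam, rose from 26.9 in SC P5 and 27.6 in SC P10 to 1335 in N2 and 2737 in N7, and turned on the processed signal. TTR, transthyretin, fell from 2825 in SC P5 and 2508 in SC P10 to 22.7 in N2 and 22.2 in N7, and the other 2 that fell were CUBN and SPARC. Without N2 the hypoblast list gave 8 higher and 3 lower, and without N7 4 higher and 8 lower. The liver and gut list gave 4 higher and 2 lower of 15, beside the same shares of all genes. Fewer rose when any array but N2 or I9 was left out, and more rose without N2. With a floor 4 times as high 1 rose and 1 fell of 14.

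**Figure D5:**
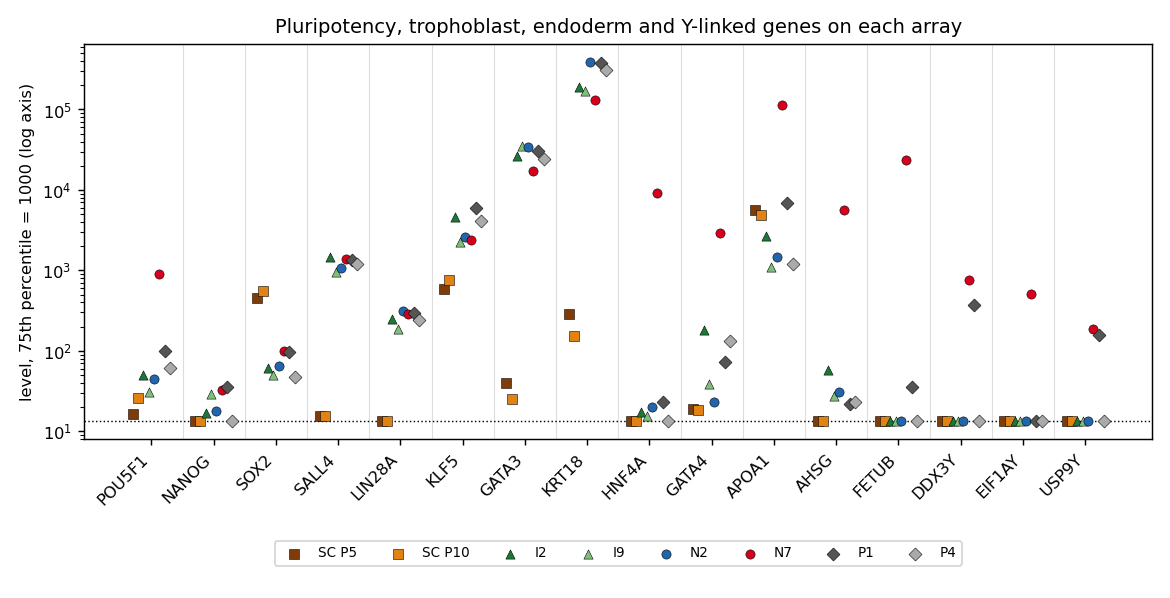
Level of pluripotency, trophoblast, endoderm and Y-linked genes on each of the 8 arrays (log axis, 75th percentile = 1000, dotted line = floor). N7 stands above all other arrays in POU5F1, HNF4A, GATA4, APOA1, AHSG, FETUB and the Y-linked genes, with P1 next in DDX3Y and USP9Y.

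Markers of other cell types that a skin sample could hold were measured as well. Over all genes 15.8% rose and 13.9% fell. Their summed levels in SCs and NT-eSLCs were 157 to 178 and 355 to 459.8 for endothelial genes, 3869.97 to 4097 and 12054 to 31974 for leukocyte genes, and 38467 to 63779 and 92685 to 113902 for keratinocyte genes. Of 6 endothelial genes tested 1 rose, ESAM, and the defining genes CDH5 and EMCN were at the floor on all arrays. No endothelial gene passed with normexp background correction, with a floor 4 times as high, or without N7 or either SC array. More passed without I2 or I9. Of 7 leukocyte genes 2 rose and 1 fell, beside those shares of all genes, and leaving out single arrays gave 1 to 3 rises and 0 to 2 falls. AIF1, an actin-binding protein, was 16266 in N2 and 1847 in N7, and at the floor in SCs, while CD3E, a defining gene of T cells, was at most 18.7 on any array. Of 8 keratinocyte genes 2 rose and 1 fell, beside the same shares, and 5 rose without N7. KRT14, a basal keratin, fell from 5382 in SC P5 and 2681 in SC P10 to 1671 in N2 and 1289 in N7, and PKP1, plakophilin-1 of desmosomes, rose from 170.3 in SC P5 and 68.2 in SC P10 to 4712 in N2 and 3346 in N7.

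Genes of DNA methylation and chromatin were measured as well. Of 10 DNA methylation genes 1 rose and 1 fell, where 15.8% and 13.9% of all genes did, and leaving out single arrays gave 0 to 2 rises and 0 to 1 falls. DNMT3B, a de novo methyltransferase, was at the floor in SCs, and 100.1 in N2 and 506 in N7, at least 16.9-fold higher (limma adjusted p = 0.027). Its partner DNMT3A was 898 in SC P5 and 1198 in SC P10, and 4271 in N2 and 23989.9 in N7, which did not pass (adjusted p = 0.064). For both, N2 and I9 were low and I2 and N7 high, with DNMT3A at 35199 in I2 and 5224 in I9. DNMT1, the maintenance enzyme, was 4249 in N2 and 5036 in N7, and 4973 in SC P5 and 7451 in SC P10. Of 33 histone modifiers 6 rose and 2 fell, beside the same shares of all genes, with a median of 0.43. PADI4, which converts histone arginine to citrulline, rose from 37.3 in SC P5 and 32.7 in SC P10 to 16550.4 in N2 and 1027 in N7. EHMT2, an H3K9 methyltransferase, rose by 1.69 ± 0.31 (log2, SE, limma adjusted p = 0.0096), and KDM4A, a histone demethylase, had a difference of -1.54 ± 0.23 (adjusted p = 0.0047). Without SC P5, 0 histone modifiers rose and 1 fell.

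Imprinted genes, which carry marks set in the germ cells, gave 4 rises and 3 falls of 24 tested, where 15.8% of all genes rose and 13.9% fell, and leaving out single arrays gave 1 to 4 rises and 2 to 4 falls. ASCL2, a placental basic helix-loop-helix factor, was at the floor in SCs, and 2492 in N2 and 7946 in N7, at least 335-fold higher. SGCE and PLAGL1 fell from 4029.7 in SC P5 and 3569 in SC P10, and 1289 in SC P5 and 1328 in SC P10, to 20.7 in N2 and 16.9 in N7, and 25.8 in N2 and 13.3 in N7. IGF2, a fetal growth factor, was 242 in N2 and 2672 in N7, 567 in SC P5 and 230.0 in SC P10, and 392 in I2 and 310.1 in I9, and H19, its reciprocal partner, was 25.3 in N2 and 164 in N7, and 57.5 in SC P5 and 42 in SC P10, and neither passed. NDN was 60.9 in N2 and 1465 in N7, and 787 in I2 and 48.1 in I9, so that the lines N7 and I2 were high and N2 and I9 low, as for DNMT3B. IGF2, H19 and NDN were named after their values were seen.

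HOX genes hold positional identity in fibroblasts. Of 15 tested 5 rose and 1 fell, where 15.8% of all genes rose and 13.9% fell. HOXA4 rose from 19.7 in SC P5 and 23.2 in SC P10 to 751 in N2 and 513 in N7. HOXB4 was at the floor in SCs, and 438 in N2 and 289 in N7, at least 26.8-fold higher. HOXD4 and HOXA3 differed by 4.67 ± 0.46 log2 (SE, limma adjusted p = 9.18e-04) and by at least 19.7-fold. The 4 HOX genes of the embryonic set were at embryo level in both lines, as were 70.9% of that whole set. HOXB2, which is outside that set and was named after its values were seen, was lower in N7 than in the IVP lines, at 15.6 compared with 55.9 in I2 and 63.8 in I9. HOXA2 was the 1 gene that fell, from 164 in SC P5 and 151 in SC P10 to 46 in N2 and 24.2 in N7. Without N7, 8 HOX genes rose and 0 fell, and on the processed signal HOXD4 and HOXA3 turned to lower in the NT lines.

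Among cell cycle and senescence genes 5 rose and 4 fell of 23, where 15.8% of all genes rose and 13.9% fell. CDKN2B, an inhibitor of CDK4 and CDK6, was 2976 in SC P5 and 2017 in SC P10, and 13.3 in N2 and 20.3 in N7. RB1, the retinoblastoma protein, fell from 1959 in SC P5 and 2176 in SC P10 to 158 in N2 and 125 in N7, and CCND1, cyclin D1, from 18121 in SC P5 and 21962 in SC P10 to 1628 in N2 and 2122 in N7. CCNE1, cyclin E1, rose from 265 in SC P5 and 394 in SC P10 to 697 in N2 and 1802 in N7. Without SC P5, 1 gene of the list rose. The 3 members of this list in the somatic set were at embryo level in both NT lines, as were 76.5% of that whole set.

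Germline and oocyte genes were measured too. Of 12 germline genes tested 2 rose and 0 fell, where 15.8% of all genes rose and 13.9% fell, and 5 rose without N2. SYCP3, a synaptonemal complex protein, rose from 37.2 in SC P5 and 40.1 in SC P10 to 476 in N2 and 1499 in N7, and TDRKH, a tudor protein of the piRNA pathway, was at the floor in SCs, and 53.4 in N2 and 103 in N7. TDRKH was lower in the NT lines on the processed signal. GTSF1, ASZ1 and MAEL, of the same pathway, were 4600.0, 2036 and 506 in N7 and 20.9, 54.7 and 13.3 in N2, and did not pass. KIT, the receptor of stem cell factor, was 725 in N7 and at the floor on all other arrays. GTSF1, ASZ1, MAEL and KIT were named after their values were seen. Of 8 oocyte genes 1 rose, NFYA, and 1 fell, UCHL1, from 6907 in SC P5 and 8024 in SC P10 to 214 in N2 and 2048 in N7. Of 9 sex-linked genes and 15 housekeeping genes tested, 0 were called in limma, with 2 of each list at an unadjusted p under 0.05.

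Against the IVP lines the NT lines as a pair gave no call. In limma 0 of 10957 genes passed, with 307 at an unadjusted p under 0.05, and in the methods' t-test 17 genes passed unadjusted and 0 after Benjamini-Hochberg adjustment. Without N2, N7 against the IVP lines gave 151 genes, and without N7, N2 against the IVP lines gave 0. With each line as a group of its own, 0 genes were called in N2 (354 at an unadjusted p under 0.05) and 60 in N7. N7 and N2 differed at 37 genes, 32 higher and 5 lower in N7 (0.292% and 0.0456% of those tested), which became 3 without P1, 13 without P4 and 0 without either SC array. Of the 48 genes higher in N7 than in the IVP lines, 23 were somatic genes and 25 were not. A p that misses the threshold does not show that N2 and the IVP lines were alike.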

How the data were processed

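RNA of 8 samples was hybridised to 1-colour Agilent bovine arrays, 1 sample per array. The deposited scanner intensities were background-subtracted by the authors with Agilent's Feature Extraction, and the deposited series-wide intensities were normalized by the authors in GeneSpring in a way not given in the sources used here, so that their scaling is unknown beyond the software. The processed signal of the scanner output was out of step with the background-subtracted signal on 6 of the 8 arrays (Spearman correlation across probes 0.161 to 0.216). It was used as an alternative only.

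Here the background-subtracted intensity, averaged over spots of a probe after leaving out control spots and outlier spots, was scaled so that each array's 75th percentile became 1000, floored at 13.3 (the highest of the per-array lowest signals well above background) and put on the log2 scale. The brightest probe stood for a gene, and 26731 of 43637 probes had a gene name, 12602 genes in all, updated through a RefSeq gene table of another assembly than the array's and used for names only. A gene was tested if well above background on both arrays of at least 1 condition, which 10957 genes were. Tests were limma 3.58.1 in R 4.3.3 (eBayes after lmFit, fitting 1 mean for each condition on all 8 arrays, or 1 for each of N2 and N7), with Benjamini-Hochberg adjustment, called at 0.05 and 2-fold. With 2 arrays per condition no permutation of arrays reaches 0.05 for a single gene. The script was tested on simulated data. Other tools were Python 3.11.15, numpy 2.4.6, pandas 2.3.3 and matplotlib 3.10.9. Levels are given no lower than the floor, except for the Y-linked probes, which were not floored and give DDX3Y in I9 below it. Where a group was not above background or lay at the floor, a fold is a bound. It is the bright group's mean over the dim group's mean on the log2 scale, with every array raised to the common floor.

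The members, lists and rules were chosen with earlier results of these data known. Named genes included the 8 largest rises and falls among called genes measured on all 4 arrays whose NT and SC arrays did not overlap. They also included the 8 highest somatic genes shut off in both lines. Up to 8 genes still on or not switched on in both lines were named, and 6 in 1 line alone. The others were list members by size of difference or by being still on or not switched on, and all pluripotency genes. Alternatives were scaling to the median, quantile normalization, normexp with an offset of 50 (run on the median spot signal), the processed signal, the series-wide values, the mean of probes, other filters, a floor 4 times as high, slide as a block, only the conditions compared, SC arrays as 1 sample, the methods' t-test, other set limits or references, and leaving out each array. List counts without each array, and I2 or I9 alone as reference, were added after seeing the data.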

Additional observations from a re-analysis of the deposited data

Results flagged for a closer look

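The NT lines differed from each other. In the limma fit with each line as a group, 37 genes were called between N7 and N2, and among the named genes the N7 minus N2 difference (log2) was 6.42 for PRSS35, 5.92 for SPON1, 5.87 for MGST3, 5.72 for LOC768028, -5.83 for BBOX1, -5.39 for UNC93A, 8.80 for HNF4A, 4.19 for TF and 7.48 for AHSG. That test sets 1 array against 1 array, with the spread taken from the other pairs, and PRSS35, SPON1, MGST3 and LOC768028 lie at the floor on all eSLC arrays but N7. These genes were chosen with such values known, so the differences are a description. Without P1 the count was 3, without P4 13, and without either SC array 0. N7 and N2 also differed in slide and passage. I9, which shares both with N7, was at least 2-fold apart from N2 at 257 genes and from N7 at 1836, and the part of slide and passage was not tested. Groups of 2 arrays were too small to ask whether 1 array was an outlier.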

How the results depend on the processing

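By replicate number, no paired analysis was possible because the labels give every sample number 1, and the numbers 1 and 2 given here in accession order only name arrays. Slide, which holds 1 NT and 1 SC array each, was fitted as a block. Scaling to the median and quantile normalization changed no call among the 90 called genes named or listed here. With slide as a block 81 calls were the same and 2 ended, and the others of the 90 had no value under it. Leaving out SC P5 ended 23 and leaving out SC P10 also 23. The processed signal ended 63 and turned 11 of the 90, of which SMOC1 stood at 0.020, EPB42 at -4.11, PRRX1 at 0.92, HOXD4 at -2.85, HOXA3 at -1.49, LIN28A at -2.94, DPPA2 at -0.38, KLF5 at -2.66, ETV5 at 2.47, AMN at -5.08 and TDRKH at -2.33 (log2, NT-eSLC minus SC), and on the series-wide values PRRX1 stood at 0.095. The cause was not tested.

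Genes called higher and lower in NT-eSLCs than in SCs (1733 and 1527) numbered 187 and 66 on the processed signal, 942 and 864 with the SC arrays as 1 sample, and 149 and 147 in the methods' t-test after adjustment, and 1145 were higher on the series-wide values, where the median gene shifted to -0.02. Between NT-eSLCs and IVP-eSLCs (0) the series-wide values gave 128 and the unadjusted t-test 17. For N2 against IVP-eSLCs (0) the processed signal gave 56, the series-wide values 574, no filter 11 and the higher floor 1. For N7 against IVP-eSLCs (60) these were 0 on the processed signal, 621 on the series-wide values, 153 with no filter and 20 with genes above background on all 8 arrays. For N7 against N2 (37) they were 0, 1432, 173 and 6, and 68 with the higher floor.

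The somatic set (511) held 255 genes on the processed signal, 288 with genes above background on all 8 arrays, 799 at a 4-fold limit and 323 at a 16-fold limit. Those at embryo level in both NT lines (391) numbered 96, 227, 654 and 229 in the same order. Those still on in 1 or both lines (58) numbered 36 with normexp, 123 on the series-wide values, 26 with genes above background on all 8 arrays and 96 with the PA reference. The embryonic set (577) held 324 on the processed signal, 334 with genes above background on all 8 arrays and 914 at the 4-fold limit. Those at embryo level in both lines (409) numbered 224, 247 and 685, and 271 at the 16-fold limit, and those not switched on in 1 or both (65) numbered 38 on the processed signal and 28 with genes above background on all 8 arrays.

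Leaving out 1 array at a time gave 883 to 1672 genes higher and 843 to 1436 lower than SCs, 0 to 151 between NT-eSLCs and IVP-eSLCs, 0 to 0 for N2 and 12 to 46 for N7 against IVP-eSLCs, and 0 to 51 between N7 and N2. The somatic set ran from 511 to 645, with 326 to 494 at embryo level in both lines and 1 to 165 still on, and the embryonic set from 577 to 767, with 318 to 562 at embryo level and 1 to 227 not switched on. The lowest counts still on and not switched on were those without N7, and the highest those without I9. The number of arrays limits the precision, signal ranged 75.2-fold to 136-fold from the lowest spot well above background to the 75th percentile, and differences among genes near the floor were not detectable.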

Other observations

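The 25 genes higher in N7 than in the IVP lines that were outside the somatic set, and the Y-linked transcripts of N7 and P1, were not tied to a comparison with SCs. COL18A1, a basement membrane collagen, was 35333 in N7, 675 in N2, 348 in I2 and 289 in I9, and 321 in SC P5 and 234 in SC P10 (6.80 log2 above IVP in N7). It was named after its values were seen. LOC528601, a gene the RefSeq table places on the Y chromosome, had 2 probes at 330.6 and 402.5 in N7, and 1 of them was marked well above background at 17.3 in I9. A TSPY probe, of a multicopy Y-linked family, was at 50.01 in N7.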
